A study of Mus musculus with 12 samples.

Results

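The 10 genes followed here belong to the insulin-like growth factor (IGF) axis and were chosen by name: the ligand gene Igf2, the receptor genes Igf1r, Insr and Igf2r, the adaptor genes Irs1 and Irs2, and the binding protein genes Igfbp2, Igfbp3, Igfbp4 and Igfbp7. They are 10 of the 54146 genes counted, and all 10 identifiers were found. RNA was sequenced from BMEL cells, a line of bipotential hepatic progenitors derived from mouse embryonic liver, which can form hepatocytes and bile duct cells. The line was isolated from a mouse with floxed Cdk8 alleles, so every group carries that background. The 4 groups of 3 libraries were wild-type cells without transformation (untransformed below), wild-type cells that carry H-RasG12V (RasG12V below), and cells labelled Cdk8 -/- or Cdk19 -/- that also carried H-RasG12V (the Cdk8 and Cdk19 knockouts below). No untransformed knockout was included, so a knockout was compared at matched transformation only with RasG12V cells. All cells grew exponentially on collagen-coated plates in serum-containing medium with 10 µg/mL insulin, 30 ng/mL IGF2 and 50 ng/mL EGF, so the pathway was supplied with added ligand in every group. The labels do not say whether the libraries of a group came from separate cultures or clones, so each p-value rests on a spread among libraries that may be technical.

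IGF1, IGF2 and insulin bind the tyrosine kinase receptors IGF1R and INSR, which phosphorylate the adaptors IRS1 and IRS2 and so switch on the PI3K-AKT and Ras-ERK branches. IGF2R carries no kinase and takes IGF2 to lysosomes for degradation, while the secreted binding proteins hold IGFs in the medium and set how much reaches the receptors. In liver, Igf2 is a gene of fetal life, Igf1 a gene of adult hepatocytes, and Irs1 and Irs2 pass on the insulin signal that controls glucose and lipid metabolism.

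In transformed cells the adaptor genes Irs1 and Irs2 and the binding protein gene Igfbp7 were lower than in untransformed cells, and the binding protein genes Igfbp3 and Igfbp4 were higher. Irs2 stood 4.22-fold lower and Igfbp7 9.76-fold lower in RasG12V cells, while Igfbp4 stood 2.69-fold higher. The receptor genes Igf1r, Insr and Igf2r did not pass the test in any comparison. Igf2, the IGF ligand gene among the members, had no count in any library. No member passed the test between either knockout and RasG12V cells, or between the knockouts, with 1 exception. Irs2, higher in the Cdk8 knockout than in RasG12V, passed in 1 of 22 alternatives, when 2 libraries that stood apart were left out. In that setting RasG12V kept only 2 libraries, and 1.59% of all genes passed in the same comparison.

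Libraries held 24823560 to 36879661 gene counts, and 3 counts, the floor used where a gene has none, correspond to 0.0814 to 0.123 CPM, counts scaled to library size, in a library. Floors cover counting error only. Levels below are CPM scaled by the TMM method of edgeR, and levels of different genes are compared only as TPM, the length-corrected counterpart, which divides by exon length. Some groups of 3 libraries are described below as lying apart without overlap. The share of all genes that do so is not given here, so a lack of overlap alone is not read as a result. RasG12V replicate 3 and untransformed replicate 3 stood apart from the other libraries of their groups. On the first principal component the RasG12V library scored 4.75, against 28.0 and 28.4 for its replicates, and the untransformed one -58.7, against -77.5 and -74.0. Hras, which may take up reads of the introduced H-RasG12V, was 40.7 to 57.5 CPM in untransformed libraries and 313 to 537 CPM in RasG12V libraries, with the lowest of these in replicate 3. Gene-level counts of Cdk8 (41.4 to 43.8 CPM in its knockout, 50.9 to 56.4 in RasG12V) and Cdk19 (45.0 to 53.1 and 64.7 to 93.6) take in every exon and so do not check the deletions. The labelled cell type was checked with its markers. The simple keratin genes Krt8 and Krt18 were at 996 to 1880 and 2570 to 4280 CPM and Afp was at 7.10 to 21.7 CPM, while Alb reached 4.12 CPM at most, Dlk1 had no count and Epcam did not exceed 0.211 CPM. Summed stellate and fibroblast markers were at 0.711 to 1.42 CPM in untransformed libraries and higher, at 1.49 to 2.45 CPM, in all 9 transformed ones, with Lum at 0. Endothelial markers summed to 0.781 to 1.28 CPM and 0.865 to 1.46 CPM in the same order, with Kdr and Emcn at 0, and erythroid markers did not exceed 0.242 CPM. Macrophage and leukocyte markers summed to 36.1 to 45.9 CPM in untransformed and 33.6 to 60.4 CPM in transformed libraries. Cd14 (29.4 to 52.5 CPM) made up most of that sum, and Cd68 was at 2.97 to 6.75 CPM. The other 7 of these 9 markers stayed below 1 CPM in all 12 libraries, with Adgre1 and Clec4f at 0. Of the 5 mesothelial markers Msln was at 1090 to 1650 CPM. Upk3b reached 6.59, Lrrn4 1.09, Wt1 0.104 and Gpm6a 0.0729 CPM at most. Of the tested markers of these cells, Pdgfra (1 of 1 stellate and fibroblast) and Cdh5 (1 of 2 endothelial) rose with RasG12V. Csf1r (1 of 4 macrophage and leukocyte) rose too, and each of these reached a mean below 2 CPM. Upk3b (1 of 3 mesothelial) fell with RasG12V. The part of such cells in the members' changes was not tested.

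The promoters of the adaptor genes are shown because Irs1 and Irs2 fell together. A RefSeq window around an annotated start was available for 9 of the 10 members (13 windows, GRCm38.p6), and the 250 bases before the start are printed 5′ to 3′ on the coding strand. Capitals mark GGGCGG, the core of SP1 sites, and CAAAACA, the core of insulin response sequences bound by FOXO factors, each searched on both strands (TGTTTTG is CAAAACA on the other strand). The Irs1 stretch is chr1:82291440-82291689 and the Irs2 stretch chr8:11008930-11009179, both minus strand. The RefSeq start of Irs2 lies upstream of its GENCODE gene model.
Irs1: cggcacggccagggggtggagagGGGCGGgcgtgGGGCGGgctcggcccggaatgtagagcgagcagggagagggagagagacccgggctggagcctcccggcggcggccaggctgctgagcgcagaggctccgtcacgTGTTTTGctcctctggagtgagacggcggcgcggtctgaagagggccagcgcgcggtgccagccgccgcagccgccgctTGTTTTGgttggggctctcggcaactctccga
Irs2: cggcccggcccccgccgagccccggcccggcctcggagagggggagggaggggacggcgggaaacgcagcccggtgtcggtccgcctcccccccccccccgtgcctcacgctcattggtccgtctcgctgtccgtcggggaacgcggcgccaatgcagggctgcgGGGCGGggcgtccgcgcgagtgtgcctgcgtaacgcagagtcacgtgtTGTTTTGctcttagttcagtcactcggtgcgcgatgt
CAAAACA stood at bases -111 and -32 before the Irs1 start and at base -37 before the Irs2 start, counted to the first base of the match. It was in 2 of the 13 member windows, the windows of these 2 genes, and in 6.28% of all 32851 RefSeq windows of the same 300 bases. GGGCGG was in 8 of the 13 member windows and in 35.7% of all windows. The AP-1 letters TGANTCA were in 1 member window (7.81% of all windows), and the ETS letters CCGGAAG (8.86%), the FOXO letters GTAAACA (3.65%) and the CRE letters TGACGTCA (1.79%) were in 0. These motifs were searched with the expression values known, and a match is a description of letters, not of binding.

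Igf2 (ENSMUSG00000048583, chromosome 7, 142650766 to 142666816, minus strand, GRCm38), which encodes the growth factor also added to the medium, had 0 counts in each of the 12 libraries. A count of 0 allows at most 0.0814 to 0.123 CPM, depending on the library. The measurement is limited by the annotation, since the gene model Gm49394 lies on the same strand and covers 3596 of the 5723 exon bases of Igf2 (62.8%). Reads over both models are left out as ambiguous, so only reads on the other 2127 bases could be counted for Igf2. Gm49394 also had 0 counts in the strand used. H19, the noncoding imprinted neighbour of Igf2, had 0 counts in the untransformed group, 6 over the RasG12V group, and 3 and 2 over the Cdk8 and Cdk19 knockouts. The insulin genes Ins1 and Ins2 had 0 counts throughout. Igf1, the other IGF ligand, was at 0.0710, 0.247 and 0.179 CPM in untransformed replicates 1, 2 and 3, and at 0.364, 0.368 and 0.301 CPM in RasG12V. Those groups did not overlap, but with so few counts the log2 fold change of 1.00 (SE 0.48) did not pass the test (adjusted p = 0.163, edgeR). Genes that control Igf2 RNA were present: the mRNA-binding proteins Igf2bp1, Igf2bp2 and Igf2bp3 stood at 127, 132 and 79.9 CPM on average in untransformed cells and at 125, 141 and 73.1 CPM in RasG12V, where none passed.

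Of the 10 members 8 passed the filter on low counts; Igf2 (0 counts) and Igfbp2 (1 count in all 12 libraries) did not. With RasG12V against untransformed, 2 of the 8 rose and 3 fell, at an adjusted p below 0.05 in edgeR's quasi-likelihood test, where 11.9% of all 14283 tested genes rose and 11.5% fell. In the Cdk8 knockout against untransformed the same counts held, against 12.3% and 12.2% of all genes. In the Cdk19 knockout against untransformed they held again, against 12.4% and 12.9%. In each of these comparisons the risers were Igfbp3 and Igfbp4 and the fallers Irs1, Irs2 and Igfbp7. The 3 comparisons share the untransformed libraries, so they are not independent of each other. The members' median log2 fold change was -0.24, -0.23 and -0.16 in the same order, beside -0.00, -0.01 and -0.00 for all genes.

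**Figure D1:**
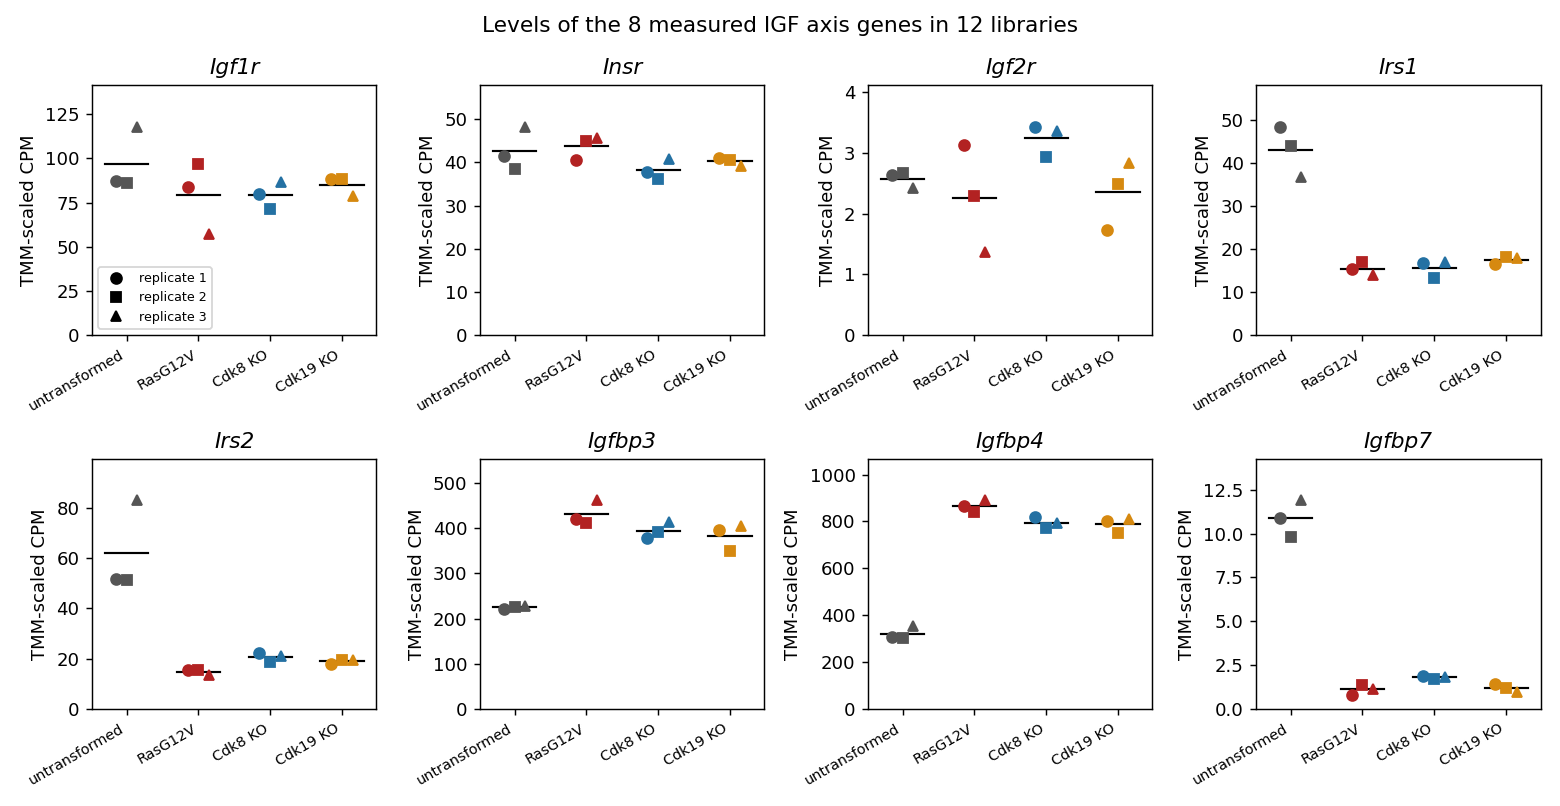
TMM-scaled CPM (vertical axis, from 0) of the 8 members that passed the filter, by group, with 1 point per library and a bar at the mean of 3 libraries. Circles, squares and triangles are replicates 1, 2 and 3. Irs1, Irs2 and Igfbp7 lie lower, and Igfbp3 and Igfbp4 higher, in all 9 transformed libraries than in all 3 untransformed ones, while Igf1r, Insr and Igf2r overlap between untransformed and RasG12V.

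Igf1r (ENSMUSG00000005533, chromosome 7, 67952827 to 68233668, plus strand) encodes the main signalling receptor for IGF1 and IGF2. It was at 87.0, 86.2 and 118 CPM in untransformed replicates 1, 2 and 3, and at 83.9, 97.0 and 57.2 CPM in RasG12V. The third libraries gave the highest and the lowest value of the 12, and the other libraries of these groups overlapped. The knockouts lay between, at 79.9, 71.2 and 86.9 CPM without Cdk8 and at 88.1, 88.2 and 78.9 CPM without Cdk19. The log2 fold change with RasG12V was -0.29 (SE 0.17, 95% interval -0.67 to 0.08, adjusted p = 0.261, edgeR), and it was 0.05 (SE 0.09) without replicate 3 of both groups. Its direction with RasG12V thus depended on those 2 libraries.

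Insr (ENSMUSG00000005534, chromosome 8, 3122061 to 3279617, minus strand) encodes the insulin receptor, which also binds IGF2 in one of its splice forms. It varied little, at 41.4, 38.5 and 48.3 CPM in untransformed libraries and 40.5, 45.0 and 45.7 CPM in RasG12V. It was at 37.7, 36.1 and 40.9 CPM in the Cdk8 knockout and at 41.0, 40.6 and 39.2 CPM in the Cdk19 knockout, so that all 4 groups overlapped in part. The log2 fold change with RasG12V was 0.03 (SE 0.09), with a 95% interval of -0.17 to 0.24 that leaves room for changes of that size either way. In the Cdk8 knockout against RasG12V it was -0.19 (SE 0.09, 95% interval -0.40 to 0.01, adjusted p = 0.827, edgeR).

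Igf2r (ENSMUSG00000023830, chromosome 17, 12682406 to 12769664, minus strand) encodes the clearance receptor for IGF2 and, per exon length, had the lowest level of the 3 receptor genes among the members in every library. It was at 2.63, 2.66 and 2.42 CPM in untransformed libraries and at 3.13, 2.29 and 1.36 CPM in RasG12V. The Cdk8 knockout stood at 3.43, 2.93 and 3.35 CPM, above the 3 untransformed libraries, and the Cdk19 knockout at 1.73, 2.49 and 2.84 CPM. The Cdk8 knockout libraries did not overlap those of the Cdk19 knockout, but the log2 difference of 0.46 (SE 0.27, 95% interval -0.12 to 1.04) did not pass (adjusted p = 0.823, edgeR). The antisense RNA gene Airn, which lies across Igf2r on the other strand and silences the paternal Igf2r allele in many tissues, was at 1.56, 1.92 and 1.58 CPM in untransformed libraries. It was at 0.583, 0.736 and 0.482 CPM in RasG12V, below all untransformed libraries, and it fell in that group (adjusted p = 0.00676, edgeR). It fell against untransformed in both knockouts as well (-1.48, SE 0.33, and -1.63, SE 0.34). Airn and Igf2r exons do not overlap, but unspliced reads of the 2 genes are told apart only by strand.

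Irs1 (ENSMUSG00000055980, chromosome 1, 82233101 to 82291416, minus strand) encodes an adaptor that docks PI3K to activated receptors. It was at 48.5, 44.0 and 36.7 CPM in untransformed replicates 1, 2 and 3, and at 15.5, 16.9 and 14.1 CPM in RasG12V. The Cdk8 knockout was at 16.7, 13.3 and 17.0 CPM and the Cdk19 knockout at 16.6, 18.1 and 18.0 CPM. The 9 transformed libraries overlapped one another, and each lay below the lowest untransformed library. With RasG12V, Irs1 fell 2.78-fold (log2 fold change -1.47, SE 0.13, adjusted p = 5.9e-06, edgeR). Against untransformed it also fell without Cdk8 (-1.46, SE 0.13) and without Cdk19 (-1.29, SE 0.13). The gene model Gm9747 covers 30.9% of the Irs1 exon bases on the opposite strand and had at most 2 counts of its own strand in a library. With counts that ignore strand Irs1 fell by 1.28 on the log2 scale with RasG12V.

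Irs2 (ENSMUSG00000038894, chromosome 8, 10984681 to 11008458, minus strand) encodes the adaptor that carries much of the insulin signal in liver. It was at 51.7, 51.3 and 82.9 CPM in untransformed replicates 1, 2 and 3, and at 15.3, 15.5 and 13.3 CPM in RasG12V. The third libraries were again the extremes of their groups, the untransformed one by a wide margin. The Cdk8 knockout was at 22.1, 18.5 and 21.0 CPM and the Cdk19 knockout at 17.9, 19.4 and 19.6 CPM, so every knockout library lay above every RasG12V library and below every untransformed one. With RasG12V, Irs2 fell 4.22-fold (log2 fold change -2.08, SE 0.17, adjusted p = 4.0e-06, edgeR), and by 1.76 on the log2 scale (SE 0.10) without replicate 3 of both groups. It fell against untransformed by 1.59 (SE 0.17) without Cdk8 and by 1.71 (SE 0.17) without Cdk19.

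Irs1 and Irs2 can be compared with each other per exon length. Irs2 was at 28.9, 28.1 and 46.6 TPM in untransformed libraries and Irs1 at 18.7, 16.6 and 14.3 TPM. In RasG12V, Irs2 was at 8.44, 8.66 and 7.21 TPM and Irs1 at 5.91, 6.54 and 5.30 TPM, so Irs2 was the higher of the pair in all of these libraries. Their sum was 51.1 ± 8.64 TPM (SD, n = 3) in untransformed cells and 14.0 ± 1.38 TPM in RasG12V, with 17.4 ± 2.01 TPM in the Cdk8 knockout and 17.4 ± 0.882 TPM in the Cdk19 knockout. The ratio of Irs2 to Irs1 was 1.55, 1.69 and 3.26 in the untransformed libraries, where the third stood apart. It was 1.43, 1.32 and 1.36 in RasG12V, 1.91, 2.02 and 1.78 in the Cdk8 knockout, and 1.56, 1.54 and 1.57 in the Cdk19 knockout, and these 3 sets did not overlap. The difference of that ratio between groups was not tested.

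Igfbp3 (ENSMUSG00000020427, chromosome 11, 7206086 to 7213923, minus strand) encodes the binding protein that carries most IGF in blood. It was at 221, 225 and 228 CPM in untransformed libraries and at 420, 412 and 462 CPM in RasG12V. The Cdk8 knockout was at 378, 392 and 415 CPM and the Cdk19 knockout at 397, 349 and 405 CPM. All transformed libraries lay above all untransformed ones, and the Cdk19 knockout libraries lay below the RasG12V libraries. Igfbp3 rose in RasG12V, by 1.92-fold (log2 fold change 0.94, SE 0.08, adjusted p = 4.5e-06, edgeR). The rise against untransformed was 0.81 (SE 0.08) without Cdk8 and 0.77 (SE 0.08) without Cdk19.

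Igfbp4 (ENSMUSG00000017493, chromosome 11, 99041244 to 99054392, plus strand) encodes a binding protein that restrains IGF action until proteases of the pappalysin family cleave it. It was at 307, 302 and 355 CPM in untransformed libraries and at 864, 840 and 890 CPM in RasG12V. The Cdk8 knockout was at 820, 770 and 795 CPM and the Cdk19 knockout at 804, 751 and 812 CPM, each below the lowest RasG12V library. The rise of Igfbp4 in RasG12V was 2.69-fold (log2 fold change 1.43, SE 0.08, adjusted p = 2.7e-07, edgeR). It had the smallest p of the members, the 17th of 14283 genes. Against untransformed it rose by 1.31 (SE 0.08) without Cdk8 and by 1.30 (SE 0.08) without Cdk19.

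Igfbp7 (ENSMUSG00000036256, chromosome 5, 77349240 to 77408041, minus strand) encodes a secreted protein of the same family that binds IGFs weakly and is known as a growth-restraining, senescence-linked factor in cells with active Ras-ERK signalling. It was at 10.9, 9.80 and 11.9 CPM in untransformed libraries and at 0.802, 1.39 and 1.15 CPM in RasG12V. The Cdk8 knockout was at 1.88, 1.68 and 1.83 CPM, above all RasG12V and all Cdk19 knockout libraries, which were at 1.41, 1.18 and 0.970 CPM for the latter. The fall of Igfbp7 in RasG12V was 9.76-fold (log2 fold change -3.29, SE 0.20, adjusted p = 5.1e-07, edgeR). Against untransformed the log2 fold change was -2.60 (SE 0.19) in the Cdk8 knockout and -3.19 (SE 0.20) in the Cdk19 knockout. Counts in transformed libraries were low, 22 to 62 reads, which limits the precision there. Of its exon bases 85 (7.03%) overlap exons of Polr2b on the other strand, and the opposite-strand column held 39 to 60 reads over Igfbp7 in transformed libraries. The part of such reads in these low counts was not tested. In bulk RNA, fewer cells with the gene and less RNA per cell cannot be told apart, here and for every member.

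Igfbp2, a binding protein gene active in fetal liver, had 1 count in all, in RasG12V replicate 2. It was therefore measured at or below the floor in all 12 libraries, and no fold was formed.

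**Figure D2:**
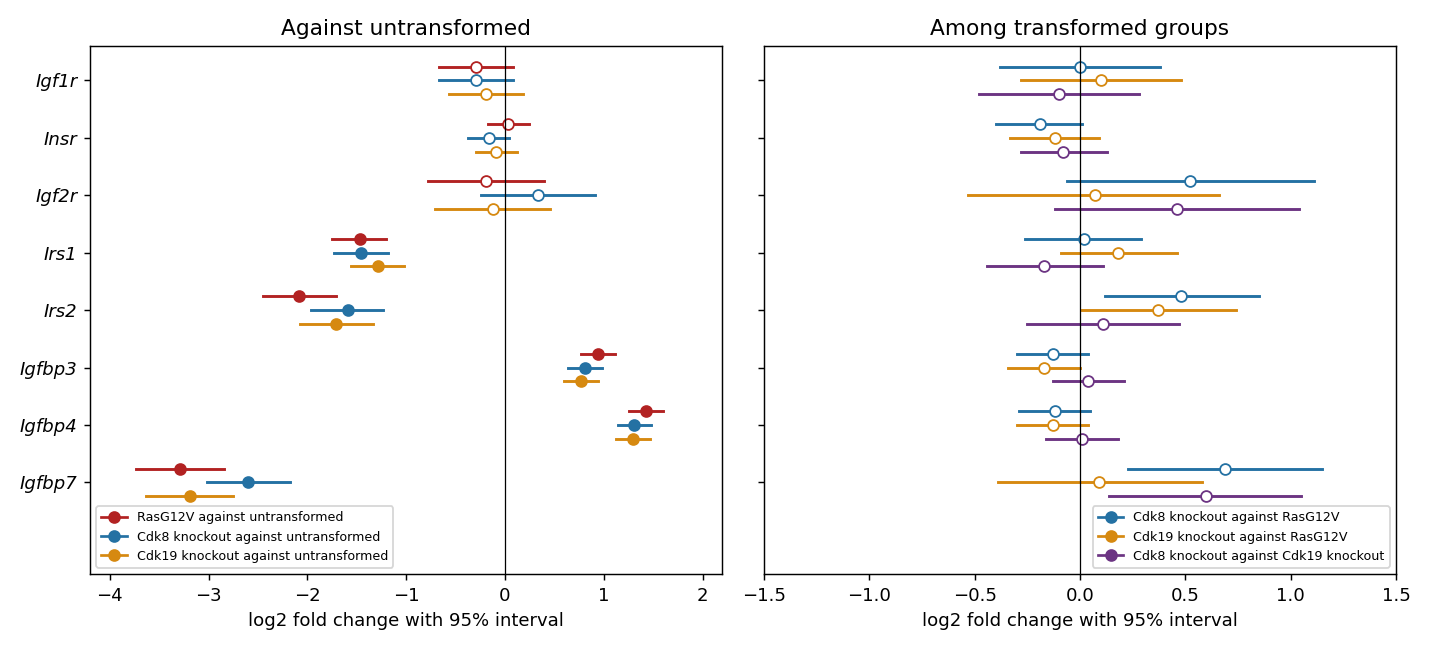
Log2 fold changes (horizontal axis) of the 8 tested members with 95% intervals from edgeR, against untransformed cells on the left and among the transformed groups on the right, where the axis is narrower. Filled points passed at an adjusted p below 0.05. The 5 filled members are the same in the 3 comparisons on the left, and no point on the right is filled.

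Per exon length, Igfbp4 and Igfbp3 were the most abundant members in every library. In untransformed libraries they were level, at 246, 236 and 286 TPM for Igfbp4 and 250, 249 and 259 TPM for Igfbp3, with a ratio of 1.01 ± 0.0819 (SD, n = 3). In RasG12V Igfbp4 stood above Igfbp3, at 682, 674 and 692 against 467, 466 and 506 TPM, with ratios of 1.46, 1.45 and 1.37. The ratio was 1.43 ± 0.0963 without Cdk8 and 1.46 ± 0.0567 without Cdk19. The summed level of the 6 binding protein genes Igfbp2 to Igfbp7 was 544, 525 and 588 TPM in untransformed libraries, and 1156, 1149 and 1217 TPM in RasG12V. Igfbp3 and Igfbp4 made up 91.2% to 92.6% of that sum in untransformed libraries and 98.5% to 99.4% in RasG12V. Igf1r was above Insr in every library, with a ratio of 1.86 ± 0.142 in untransformed cells, 1.49 ± 0.407 in RasG12V, 1.70 ± 0.0652 without Cdk8 and 1.73 ± 0.0655 without Cdk19. In RasG12V replicate 3 that ratio was 1.03, the lowest of the 12 libraries. In untransformed cells the order of levels was Igfbp3 and Igfbp4, then Irs2 and Igfbp7 (31.9, 28.1 and 34.9 TPM), which overlapped, then Igf1r (18.3, 17.8 and 25.1 TPM) and Irs1, which overlapped in part, then Insr (10.6, 9.68 and 12.5 TPM) and Igf2r (0.998, 0.988 and 0.923 TPM). In RasG12V, Igf1r (17.4, 20.5 and 11.7 TPM) followed Igfbp4 and Igfbp3. Insr (10.3, 11.6 and 11.4 TPM) came next, its highest library just under the lowest of Igf1r, and Irs2, Irs1, Igfbp7 (2.31, 4.07 and 3.25 TPM) and Igf2r followed in that order without overlap.

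**Figure D3:**
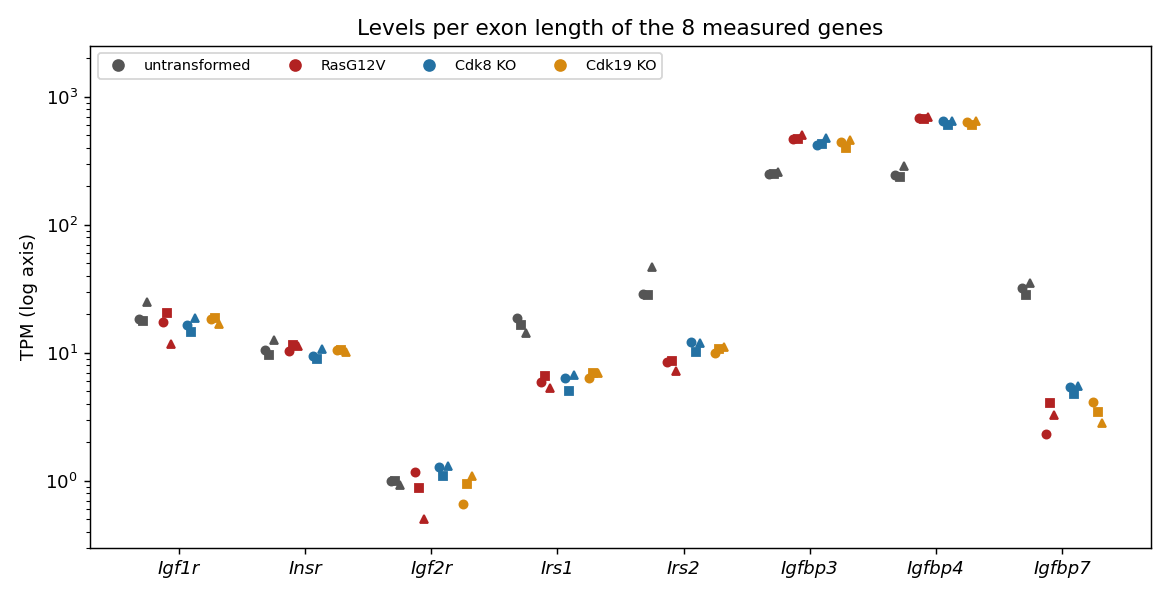
TPM, the level per exon length (vertical log axis), of the 8 tested members, 1 point per library, coloured by group; circles, squares and triangles are replicates 1, 2 and 3. Igfbp3 and Igfbp4 lie above 200 TPM and Igf2r between 0.500 and 1.30 TPM, while Irs2 and Igfbp7 move from above Igf1r in untransformed cells to below it in RasG12V.

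The question of the knockout comparisons is whether loss of either Mediator kinase shifts these genes in transformed cells. In the Cdk8 knockout against RasG12V, 0 of the 8 tested members passed in edgeR, where 0% of all genes rose and 0% fell, and 0 passed in DESeq2 and limma-voom. At an unadjusted p below 0.05 there were 2, Irs2 and Igfbp7, where 6.10% of all genes lay below it. Irs2 had a log2 difference of 0.48 (SE 0.17, 95% interval 0.12 to 0.85, adjusted p = 0.746, edgeR). Without replicate 3 of the untransformed and RasG12V groups, Irs2 was the 1 member that passed and was higher in the Cdk8 knockout by 0.42 (SE 0.09, adjusted p = 0.0277, edgeR); 231 genes (1.59% of all tested) passed then. Igfbp7 had a log2 difference of 0.69 (SE 0.21, 95% interval 0.23 to 1.15, adjusted p = 0.703), and 0.73 (SE 0.25, adjusted p = 0.121) without those libraries.

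In the Cdk19 knockout against RasG12V, 0 of the 8 passed in edgeR, DESeq2 and limma-voom, where in edgeR 0.00700% of all genes rose and 0.00700% fell. Irs2 alone lay below an unadjusted p of 0.05, as did 7.62% of all genes. Its log2 difference was 0.37 (SE 0.17, 95% interval 0.01 to 0.74, adjusted p = 0.652, edgeR), and 0.31 (SE 0.09, adjusted p = 0.0912) without replicate 3 of the untransformed and RasG12V groups. Igfbp3 had a difference of -0.17 (SE 0.08, 95% interval -0.34 to 0.00) and Igfbp4 of -0.13 (SE 0.08, 95% interval -0.30 to 0.04). Both knockouts were set against the same RasG12V libraries, so their Irs2 values are not independent. Between the knockouts, 0 of the 8 passed in edgeR, DESeq2 and limma-voom, where in edgeR 0.0770% of all genes were higher and 0.0280% lower in the Cdk8 knockout. Igfbp7, the 1 member below an unadjusted p of 0.05 (7.19% of all genes), was higher by 0.60 in the Cdk8 knockout (SE 0.21, 95% interval 0.14 to 1.05, adjusted p = 0.520, edgeR). For Igf1r, Insr, Irs1, Igfbp3 and Igfbp4 the 95% intervals of the difference between the knockouts lay within -0.48 to 0.28 on the log2 scale.

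The other genes of the pathway were read from lists of 91 genes, 81 of them besides the members, of which 65 were tested. With RasG12V against untransformed 11 rose and 9 fell of the 65, beside 11.9% and 11.5% of all genes. The counts were 12 and 8 without Cdk8 (12.3% and 12.2% of all genes), and 11 and 11 without Cdk19 (12.4% and 12.9%). Where a list is counted below, the shares of all genes with RasG12V stand beside its counts as well. Among the adaptors, Gab1, a docking protein, fell from 19.1 CPM in untransformed cells to 12.2 CPM in RasG12V (-0.64 on the log2 scale, SE 0.14), and Shc1, Grb2, Sos1 and Sos2 did not pass. Of 14 signal inhibitors 4 rose and 1 fell with RasG12V (all genes, 11.9% and 11.5%). Among them Inppl1, an inositol phosphatase that opposes PI3K, rose from 120 to 167 CPM (0.49, SE 0.09), and Socs2, a feedback inhibitor of cytokine and growth hormone signalling, rose from 1.93 to 5.59 CPM (1.54, SE 0.26). Socs2 was at 4.52, 4.25 and 7.99 CPM in RasG12V and at 2.79, 1.76 and 2.94 CPM in the Cdk19 knockout, where it did not pass against untransformed (0.37, SE 0.27). Enpp1, a membrane protein that inhibits the insulin receptor, was at 45.4, 41.0 and 30.8 CPM in untransformed libraries. In the Cdk19 knockout it was at 18.1, 16.0 and 23.5 CPM and fell against untransformed (-1.03, SE 0.19). It also fell against untransformed in RasG12V and in the Cdk8 knockout, to means of 25.7 and 22.9 CPM. Between the Cdk19 knockout and RasG12V it did not pass.

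Of the binding proteins besides the members, Igfbp6, which prefers IGF2, fell with RasG12V from 0.488 to 0.123 CPM, both low levels (-1.90, SE 0.40). Igfbp5 was at 24.2, 18.5 and 11.5 CPM in untransformed libraries and at 7.80, 7.77 and 25.7 CPM in RasG12V. The value of RasG12V replicate 3 was the highest of all 12, and the log2 fold change of -0.38 (SE 0.40) did not pass, whereas without replicate 3 of both groups Igfbp5 fell by 1.47 (SE 0.16). In the Cdk8 knockout Igfbp5 was at 6.33, 8.36 and 8.49 CPM and passed against untransformed (-1.22, SE 0.41, adjusted p = 0.0482, edgeR), but in only 7 of 22 alternatives. Of 5 tested proteins that cut binding proteins, with their inhibitors, 2 rose and 1 fell with RasG12V (all genes, 11.9% and 11.5%), and they included the largest rise of the lists. Stc1, a secreted inhibitor of pappalysins, was at 0.994, 1.08 and 0.328 CPM in untransformed libraries and at 46.2, 48.6 and 89.1 CPM in RasG12V (log2 fold change 6.27, SE 0.38, and 5.49, SE 0.27, without replicate 3 of both groups). It was at 44.6, 47.3 and 53.9 CPM in the Cdk8 knockout and at 24.7, 18.6 and 30.6 CPM in the Cdk19 knockout, below every other transformed library. Pappa2, the pappalysin that cuts IGFBP3 and IGFBP5, rose from 0.0764 to 0.621 CPM (2.99, SE 0.43). Pappa, the other pappalysin gene of the list, had no count in any library and was not tested. Adam12, a metalloprotease that can cut IGFBP3 and IGFBP5, was the 1 that fell, from 4.69 to 1.80 CPM (-1.41, SE 0.46).

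Downstream, 2 of 20 PI3K, AKT and mTOR genes rose with RasG12V and 2 fell (all genes, 11.9% and 11.5%). Pik3r1, the main regulatory subunit of PI3K, fell from 67.7 to 49.0 CPM (-0.47, SE 0.11), and Pdpk1, the kinase that activates AKT, rose from 103 to 125 CPM (0.29, SE 0.07). With these 2 groups alone in the fit, Gab1, Pik3r1 and Pdpk1 did not pass (adjusted p = 0.0709, 0.0604 and 0.0821, edgeR), and neither did Pdpk1 without untransformed replicate 2 (0.0635). Pik3r3, another regulatory subunit of PI3K, was at 24.2, 23.4 and 25.2 CPM in untransformed libraries and at 14.2, 16.3 and 24.5 CPM in RasG12V, where it did not pass. Without replicate 3 of both groups it fell in RasG12V (-0.66, SE 0.12, adjusted p = 1.6e-04, edgeR). In that setting it was -0.66 (SE 0.10) without Cdk8 and -0.65 (SE 0.11) without Cdk19. With all 12 libraries Pik3r3 fell against untransformed without Cdk8, to 15.1 CPM (-0.68, SE 0.17), and without Cdk19, to 15.2 CPM (-0.67, SE 0.17). The former did not pass without Cdk8 knockout replicate 1 or 2 (adjusted p = 0.0512 and 0.0556, edgeR), nor the latter without Cdk19 knockout replicate 2 (0.0631). Of 12 tested FOXO factors and targets 2 rose and 3 fell with RasG12V (all genes, 11.9% and 11.5%), with Foxo6 down from 2.29 to 0.205 CPM (-3.42, SE 0.36), the cell cycle brake Ccng2 up from 59.4 to 120 CPM (1.01, SE 0.12) and Bcl6 down from 17.9 to 9.56 CPM (-0.91, SE 0.13). Bcl6 fell against untransformed without Cdk8 and without Cdk19 as well (-1.03 and -0.93, SE 0.13 each). Of 6 tested genes of the Igf2 locus and its RNA regulators 1 rose and 0 fell with RasG12V (all genes, 11.9% and 11.5%). The 1 that passed was Hmga2, an architectural chromatin protein known to raise Igf2bp2. It rose from 546, 548 and 893 CPM in untransformed libraries to 1770, 1820 and 2760 CPM in RasG12V (1.68, SE 0.20), while Igf2bp2 had a log2 fold change of 0.10 (SE 0.08). Among the transformed groups 0 of the 65 passed in any of the 3 comparisons in edgeR. In DESeq2 the counts were 0 and 2 for the Cdk8 and Cdk19 knockouts against RasG12V and 1 between the knockouts. The shares of all genes called in DESeq2 are not given here, so these counts are not read as a result about the pathway. Without replicate 3 of the untransformed and RasG12V groups, 1 passed in the Cdk8 knockout against RasG12V, 2 in the Cdk19 knockout against RasG12V and 5 between the knockouts, beside 1.59%, 2.01% and 5.32% of all 14493 genes tested then. The first was Htra1, a secreted protease that can cut binding proteins, which was lower in the Cdk8 knockout than in RasG12V (-0.28, SE 0.06) and than in the Cdk19 knockout (-0.44, SE 0.06). Socs2 and Stc1 were lower in the Cdk19 knockout than in RasG12V (-0.81, SE 0.19, and -0.94, SE 0.16) and higher in the Cdk8 than in the Cdk19 knockout (0.99, SE 0.17, and 0.98, SE 0.15). Between the knockouts Gab1 was also higher without Cdk8 (0.32, SE 0.08) and Pik3cb, a catalytic subunit of PI3K, lower (-0.24, SE 0.06).

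**Figure D4:**
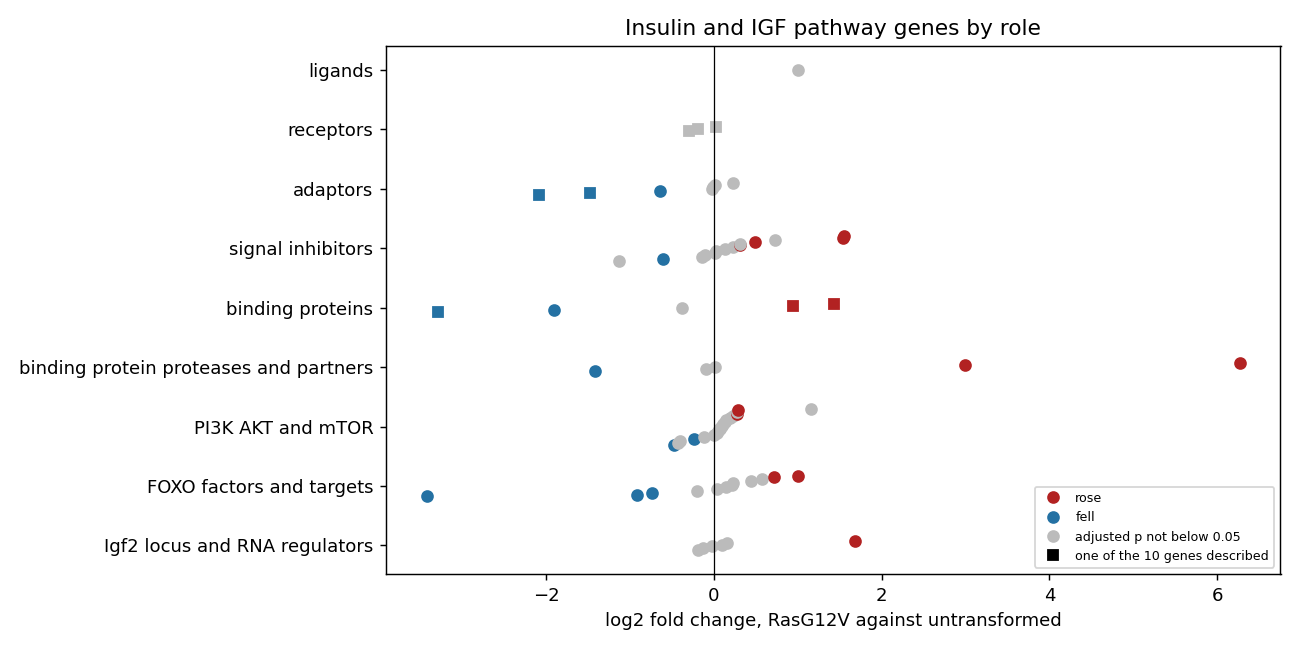
Log2 fold changes with RasG12V against untransformed (horizontal axis) of the tested genes of the pathway lists, grouped by role, with squares for the members. Red and blue mark genes that rose or fell at an adjusted p below 0.05 in edgeR, and grey those that did not pass. Stc1, at 6.27, and Foxo6, at -3.42, are the extremes.

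For members whose group means spanned at least 1 on the log2 scale, the protein-coding genes with the most similar log2 CPM over the 12 libraries were sought among 10890 genes. These Pearson r values describe the libraries, which fall into untransformed and transformed, and any gene that separates these scores high. For Irs1 they were the transporter gene Abcc5 (r = 0.991), 1190002N15Rik (0.988) and Glis2 (0.979), and for Irs2 they were 2010111I01Rik (0.986), Osbpl3 (0.983) and Rab32 (0.983). For Igfbp4 they were Mast4, Klra4 and Arap3 (each 0.996), which rose with RasG12V, and 201 genes had an r above 0.95. For Igfbp7 they were the laminin gene Lamb3 (0.992), the epidermal transcription factor gene Grhl3 (0.985) and Tor1aip2 (0.984). Lamb3 went from 32.2 to 4.88 CPM and Grhl3 from 16.5 to 0.913 CPM between untransformed cells and RasG12V.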

How the data were processed

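RNA was measured in 12 libraries, 3 in each of 4 groups taken from the genotype and transformation labels. The deposited values are gene counts, made by the authors per gene. The submitters' processing notes name FastQC, STAR 2.6.0a and the build GRCm38.p6; the annotation release is not given in the sources used here. Counts of the reverse strand were used, which held 24.7 to 28.9 times the forward-strand counts. Reads without a single gene (33.0% to 34.8%) were left out of library sizes. Reads over 2 genes of a strand are not counted, which bears on Igf2. Symbols, positions and exon lengths came from GENCODE M21, which holds 54079 of the 54146 identifiers (67 are not in it).

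Counts were tested with edgeR 4.0.16 in R 4.3.3: filterByExpr, TMM scaling, and the quasi-likelihood test in a single fit of all 12 libraries, without a block, with Benjamini-Hochberg adjustment over 14283 genes and a threshold of 0.05. The standard error (SE) is approximate: the size of the log2 fold change over the root of its F statistic, from which 95% intervals follow. CPM and TPM were computed from the counts. The code was tested on simulated data. Alternatives were RLE and upper quartile scaling, DESeq2 1.42.0, voom in limma 3.58.1, no filter, at least 1 CPM in 3 libraries, unstranded counts, a replicate block, 2 groups alone, replicate 3 of the untransformed and RasG12V groups left out together, and each library left out.

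The members, gene lists and motifs were chosen with earlier results of these data known. Named are all members and, per pathway list and comparison, up to 2 other genes past the threshold with the lowest adjusted p. Other genes were added as members of the lists or neighbours after their values were seen. They were Airn, Igf1, Shc1, Grb2, Sos1, Sos2, Adam12, Pappa, Htra1, Pik3cb, the Igf2bp genes, H19 and the insulin genes. Bcl6, Igfbp5, Enpp1 and Pik3r3 in RasG12V, and Enpp1 in the Cdk8 knockout, were added in the same way. Genes similar to a member were the 3 protein-coding genes with the highest r of log2 CPM (prior count 2), with a mean of at least 1 CPM. Promoter sequences are those of RefSeq on GRCm38.p6. Figures were drawn with matplotlib 3.10.9.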

Additional observations from a re-analysis of the deposited data

How the results depend on the processing

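In each comparison with untransformed cells, 5 members passed under all 10 alternatives and each of the 12 fits without 1 library, and they were Irs1, Irs2, Igfbp3, Igfbp4 and Igfbp7 each time. In the other comparisons 0 passed, except for 1 (Irs2) in the Cdk8 knockout against RasG12V with replicate 3 of the untransformed and RasG12V groups left out together (both left out, below), a setting in which more genes were called in all comparisons. It called 40.0%, 42.2% and 43.6% of all 14493 genes tested in RasG12V, the Cdk8 knockout and the Cdk19 knockout against untransformed. Reads on shared bases limit Igf2 and 22 to 62 reads in transformed libraries limit Igfbp7.

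The replicate numbers are not stated to pair libraries, and deviations of same-numbered libraries had an r of -0.17 to 0.28 over genes. With the replicate number as a block the members called stayed at 5, 0, 0, 0, 5 and 5 in the 6 comparisons, and Igf1r in the Cdk8 knockout against RasG12V was 0.00.

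Values that changed sign did not pass in any alternative. With both left out, Igf1r and Igf2r were 0.05 and 0.03 with RasG12V against untransformed, Irs1 was -0.04 in the Cdk8 knockout against RasG12V, Igf1r and Igf2r were -0.08 and -0.20 in the Cdk19 knockout against RasG12V, and Insr was 0.00 in the Cdk19 knockout against untransformed. Igf1r in the Cdk8 knockout against RasG12V, -0.00 as reported, was 0.01 with RLE, upper quartile scaling and DESeq2, 0.00 without a filter and with 2 groups alone, 0.03 with limma-voom and 0.02 with unstranded counts, where Irs1 was -0.01. Without 1 library, the range with RasG12V against untransformed was -0.04 to 0.13 for Insr and -0.50 to 0.10 for Igf2r. In the Cdk8 knockout against RasG12V it was -0.18 to 0.17 for Igf1r and -0.05 to 0.13 for Irs1. In the Cdk19 knockout against RasG12V it was -0.09 to 0.27 for Igf1r, -0.21 to 0.39 for Igf2r and -0.09 to 0.27 for Igfbp7. Between the knockouts it was -0.02 to 0.08 for Igfbp3 and -0.02 to 0.04 for Igfbp4. In the Cdk19 knockout against untransformed it was -0.16 to 0.01 for Insr and -0.29 to 0.07 for Igf2r. The cause of these shifts was not tested.

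Among the other pathway genes, the 20 called with RasG12V against untransformed became 33 with both left out (5799 of all genes), 11 with 2 groups alone and 13 without untransformed replicate 2. The 20 in the Cdk8 knockout against untransformed became 35 with both left out (6116 of all genes) and 13 without untransformed replicate 1 or Cdk8 knockout replicate 1, and the 22 in the Cdk19 knockout became 38 with both left out (6314 of all genes). With both left out, the 0 called became 1 in the Cdk8 knockout against RasG12V, 2 in the Cdk19 knockout against RasG12V and 5 between the knockouts, beside 231, 291 and 771 of all genes. The 0 between the knockouts also became 3 without RasG12V replicate 3 and with 2 groups alone, 2 with no filter and 1 with DESeq2. The 0 in the Cdk19 knockout against RasG12V became 1 with no filter and 2 with DESeq2. Except with both left out, the shares of all genes called in these settings are not given here. Those counts are therefore not read as results about the pathway.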
